A study of Gallus gallus with 4 samples.

Results

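Splicing factors and heterogeneous nuclear ribonucleoproteins (hnRNP proteins) were followed in chick retina, retinal pigment epithelium (RPE) and choroid after form-deprivation (FD) myopia and in the first 24 hr of recovery from it. The members were the genes whose annotated symbol begins with SRSF, HNRNP, SF3A, SF3B, SNRP, PRPF or RBM, without HNRNPKL and without the RBMS and RBPMS genes. By this rule 80 of 13051 measured genes were members, and 222 of the 27178 probe sets with 1 annotated gene belonged to them. The rule used names only and no measured value. Of the members, 11 encode SR proteins, 12 hnRNP proteins, 7 proteins of the SF3A and SF3B complexes, 10 snRNP proteins, 9 PRPF proteins and 31 RBM proteins.

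Each condition was measured on 1 Affymetrix chicken array, hybridised with RNA that was pooled from the right eyes of 5 Leghorn/New Hampshire chicks. In 3 conditions (FD 0 hr, FD 6 hr, FD 24 hr) a translucent occluder had covered the right eye and normal vision had then been allowed for 0, 6 or 24 hr, and chicks of the control array wore none. The treatment protocol gives 10 days of occlusion and the sample labels 7 days, with an age of 11 days post-hatch, or of 12 days at FD 24 hr. All chicks carry the label male and were kept under a day and night cycle of equal length. Each value is a mixture over the cells of the dissected layers, in which fewer cells of a type cannot be told apart from less RNA per cell.

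Splicing removes introns from a transcript in the spliceosome, a machine built on each intron from small nuclear ribonucleoproteins (snRNPs) and many further proteins. The U1 snRNP reads the start of the intron and the U2 snRNP, with its SF3A and SF3B complexes, the branch point, after which U4, U5 and U6 join with the PRPF proteins and the catalytic core forms. SR proteins mostly favour the use of an exon and hnRNP proteins often repress it, so that the balance of these families helps to set which exons of a transcript are kept. The retina is known for its dependence on this machinery, since in humans mutations of several PRPF genes cause retinitis pigmentosa, a loss of rods and then cones.

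All values are log2 expression after the authors' robust multichip average (RMA), the value of a gene is the median of its probe sets, and a difference is the value on the array named first minus that on the array named second. Values given over the FD arrays are those of FD 0 hr, FD 6 hr and FD 24 hr, in this order. As every condition had a single array, the differences have no replicate check and carry no p-value or standard error, and their precision is limited by the number of arrays. Probe sets of the same gene give a scale for the error within a pair of arrays, but not for errors that a whole array or pool shares. Over the 2572 genes with at least 2 probe sets above the dim limit, the pooled SD of the differences among probe sets of a gene was 0.42 for FD 0 hr minus control, 0.29 from FD 0 hr to FD 6 hr, 0.36 from FD 0 hr to FD 24 hr and 0.26 from FD 6 hr to FD 24 hr. This dim limit, a mean over the 4 arrays of 6.28, was passed by 6101 genes, among them 55 of the 80 members. The remaining 25 members are called dim, and they enter the medians but not the counts of differences of at least 1, which is a doubling or halving of the signal.

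The arrays themselves differed in ways that bear on these genes. HINTW, a gene of the female W chromosome, was between 5.335 and 5.515 on the FD arrays and at 9.355 on the control array, although all pools are labelled male. The 269 Z-linked genes above the dim limit were higher at FD 0 hr than in control by a median of 0.46. HNRNPK was the only member on the Z chromosome and none lay on the W chromosome. The gap between the 3′ and 5′ probe sets of β-actin, a sign of RNA quality, was 3.72 at FD 0 hr and between 2.39 and 2.85 on the other arrays. Other controls set FD 0 hr less apart. The 3′ and 5′ probe sets of GAPDH were at 13.89 and 13.79 at FD 0 hr and at 14.04 and 13.95 in control. Those of EF1α were at 13.64 and 12.23 at FD 0 hr and at 13.75 and 12.54 in control. The paper calls β-actin unreliable as a housekeeping gene, because of its signal in both of the datasets it used. By GAPDH and EF1α it reports hybridisation within limits. Its text does not discuss the β-actin gap at FD 0 hr. The bacterial spike-in control BioB, added to the RNA target before hybridisation and read here by its 5′ probe set, was at 8.02, 6.62 and 6.65 over the FD arrays and at 8.30 in control, so that FD 0 hr and control lay together and apart from both recovery arrays. The poly-A spike-in control Dap, read by its 5′ probe set, was at 7.73, 5.24 and 5.07 over the FD arrays and at 6.96 in control. FD 0 hr and control were thus again above both recovery arrays. All 9 measured markers of amacrine and horizontal cells were lower at FD 0 hr. Their summed level on the log2 scale was 12.99 at FD 0 hr and 13.98 in control. Of 8 markers of ganglion cells 6 were lower, with 12.58 at FD 0 hr and 12.88 in control. Summed levels of other retinal cells were lower too. Cones were at 13.945 against 14.68 in control, with 5 of 7 markers lower. Mueller glia were at 14.14 against 14.44, with 6 of 7 lower, and rods at 11.09 against 11.315, with 4 of 5 lower. Bipolar cells were at 11.67 against 12.30, though 2 of their 3 markers were higher. RPE65, which defines the RPE, was at 12.75 to 13.32 and DCN, of connective tissue, at 11.01 to 11.78, but the lists of these layers were mixed. Of 11 markers of RPE and melanocytes, 6 were higher at FD 0 hr than in control, 4 lower and 1 equal, between MLANA at 3.22 and PMEL at -0.96, with a summed level of 14.50 at FD 0 hr and 14.06 in control. Of 7 fibroblast markers 5 were higher and 2 lower (12.15 at FD 0 hr and 11.86 in control) and of 5 endothelial markers 4 were higher and 1 lower (9.745 at FD 0 hr and 8.73 in control), though 4 in each of these lists were dim. RMA gives no value of 0, so that no marker was at 0. What part of the differences reported here goes with sex, RNA quality, hybridisation, the split of the spike-in controls or tissue share was not tested.

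At the end of form deprivation the members were spread about evenly around the control array. Their median difference was -0.03, or 0.02 after quantile normalisation of the arrays, with 38 members higher and 42 lower, beside a median of 0.00 over all genes. Of the 55 members above the dim limit, 1 (PRPF4B) was higher by at least 1 and 2 (PRPF8 and SNRPN) were lower, against 4.57% of all genes in each direction and 9.15% in both. With a limit of 0.58 there were 7 higher and 7 lower, against 12.9% and 14.2% of all genes. The median size of the difference, without its sign, was 0.265 for these members and 0.33 for all genes above the dim limit.

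**Figure D1:**
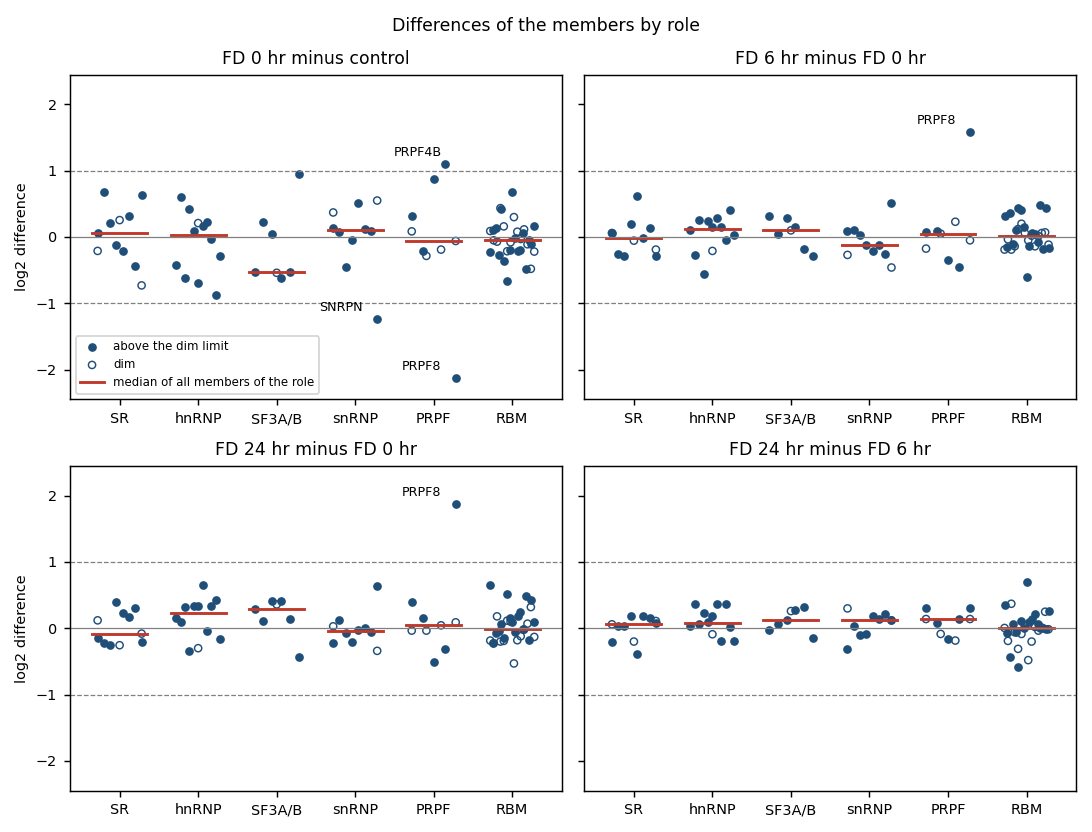
Log2 difference of each of the 80 members (filled points, above the dim limit; open points, dim) in 4 comparisons, by role, with the median of the role as a red line and dashed lines at 1 and -1. PRPF8 stands at -2.13, 1.58 and 1.88 in the comparisons that hold FD 0 hr, and SNRPN and PRPF4B are the only other members past a dashed line.

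PRPF8 was the member that differed most. Its product is the largest protein of the U5 snRNP and lies at the catalytic centre of the spliceosome. PRPF8 was at 7.92, 9.50 and 9.80 over the FD arrays and at 10.05 in control, a difference of -2.13 for FD 0 hr. The FD 0 hr array was far below the other arrays. The brightest of its 3 probe sets was at 9.88, 11.18 and 11.43 over the FD arrays and at 11.49 in control, a difference of -1.61, while its dim probe set differed by -0.06. With the mean of the 3 probe sets in place of their median, the difference was -1.27. Without the FD 0 hr array the differences were smaller, as PRPF8 was below control by -0.55 at FD 6 hr and by -0.25 at FD 24 hr. Relative to FD 0 hr it was higher by 1.58 at FD 6 hr and by 1.88 at FD 24 hr.

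Partners of PRPF8 in the U5 snRNP showed smaller differences. EFTUD2, the GTPase of this particle, which lies outside the rule and was chosen after its values were seen, was at 6.71, 7.22 and 7.61 over the FD arrays and at 7.86 in control, with probe sets that did not all go one way. SNRNP200, its helicase, which also lies outside the rule, was at 6.81, 6.78 and 6.76 over the FD arrays and at 6.85 in control. PRPF6, which bridges the U5 snRNP to U4 and U6, was dim and differed from control by -0.06 at FD 0 hr, though its 1 bright probe set was at 9.15 against 9.62. PRPF3 of the U4/U6 snRNP was also dim, with a difference of 0.085, and its 1 bright probe set was at 7.92 against 8.56. PRPF31, a gene often mutated in human retinitis pigmentosa, was not analysed here.

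At FD 0 hr PRPF4B, PRPF38A and PRPF18 exceeded control and PRPF19 was below it. PRPF4B, a kinase that acts on the U4/U6 and U5 particle, was at 8.14, 7.69 and 7.83 over the FD arrays and at 7.04 in control. This difference of 1.1 at FD 0 hr rested on a part of its probe sets, as the 5 were at 1.1, 0.81, 0.07, 0.01 and -0.02. PRPF38A, which is needed to activate the assembled spliceosome, was at 8.90, 8.55 and 8.39 over the FD arrays and at 8.03 in control by its single probe set. All FD arrays were thus above control for PRPF38A, most of all FD 0 hr, by 0.87. PRPF18, a factor of the second step of splicing, was higher than in control by 0.32 at FD 0 hr and by 0.71 at FD 24 hr. PRPF19, the ubiquitin ligase of the complex named after it, was at 6.68 at FD 0 hr and at 6.895 in control.

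Among the snRNP proteins, SNRPN stood out. It encodes a protein of the Sm ring that surrounds spliceosomal RNAs. In mammals it is known as a form found in neurons, which these data do not show for the chick gene. Its single probe set was at 8.82 (FD 0 hr), 9.34 (FD 6 hr) and 9.46 (FD 24 hr), and at 10.05 in control. All FD arrays were below control, by -1.23, -0.71 and -0.59. Markers of amacrine and horizontal cells, which are neurons, were lower than in control on these arrays for 9, 8 and 9 of 9 genes. Those of ganglion cells, also neurons, were lower for 6, 4 and 2 of 8 genes. The part of these cells in the difference of SNRPN was not tested. Further Sm proteins went both ways. SNRPD3 was at 10.25 at FD 0 hr and 9.73 in control, with both probe sets higher, by 0.48 and 0.56, whereas SNRPD1 was at 8.39 at FD 0 hr and 8.84 in control. SNRPE differed by 0.115 and SNRPD2 by -0.04. Of the 10 snRNP proteins 7 were above control at FD 0 hr and 3 below, and their median was 0.10. SNRPB2 of the U2 snRNP was at 7.08, 7.17 and 6.86 over the FD arrays and at 6.95 in control.

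Of the 7 subunits of SF3A and SF3B, which hold the U2 snRNP on the branch point, 4 were lower than in control at FD 0 hr and 3 higher, with a median of -0.53. SF3A1 was at 9.54, 9.855 and 9.835 over the FD arrays and at 10.075 in control, and both its probe sets were lower at FD 0 hr, by -0.66 and -0.41. SF3B4 was lower at FD 0 hr (8.125 against 8.74), as were SF3B5 (6.28 against 6.81) and the dim SF3B3 (5.71 against 6.25). SF3B6, the subunit that touches the branch point adenosine, went the other way by its single probe set, at 10.64, 10.36 and 10.21 over the FD arrays and at 9.69 in control. All FD arrays were above control for SF3B6. SF3B1, the largest subunit, was at 6.72, 7.00 and 7.13 over the FD arrays and at 6.68 in control, and its brightest probe set at 10.24, 10.42 and 10.65, with 10.12 in control.

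**Figure D2:**
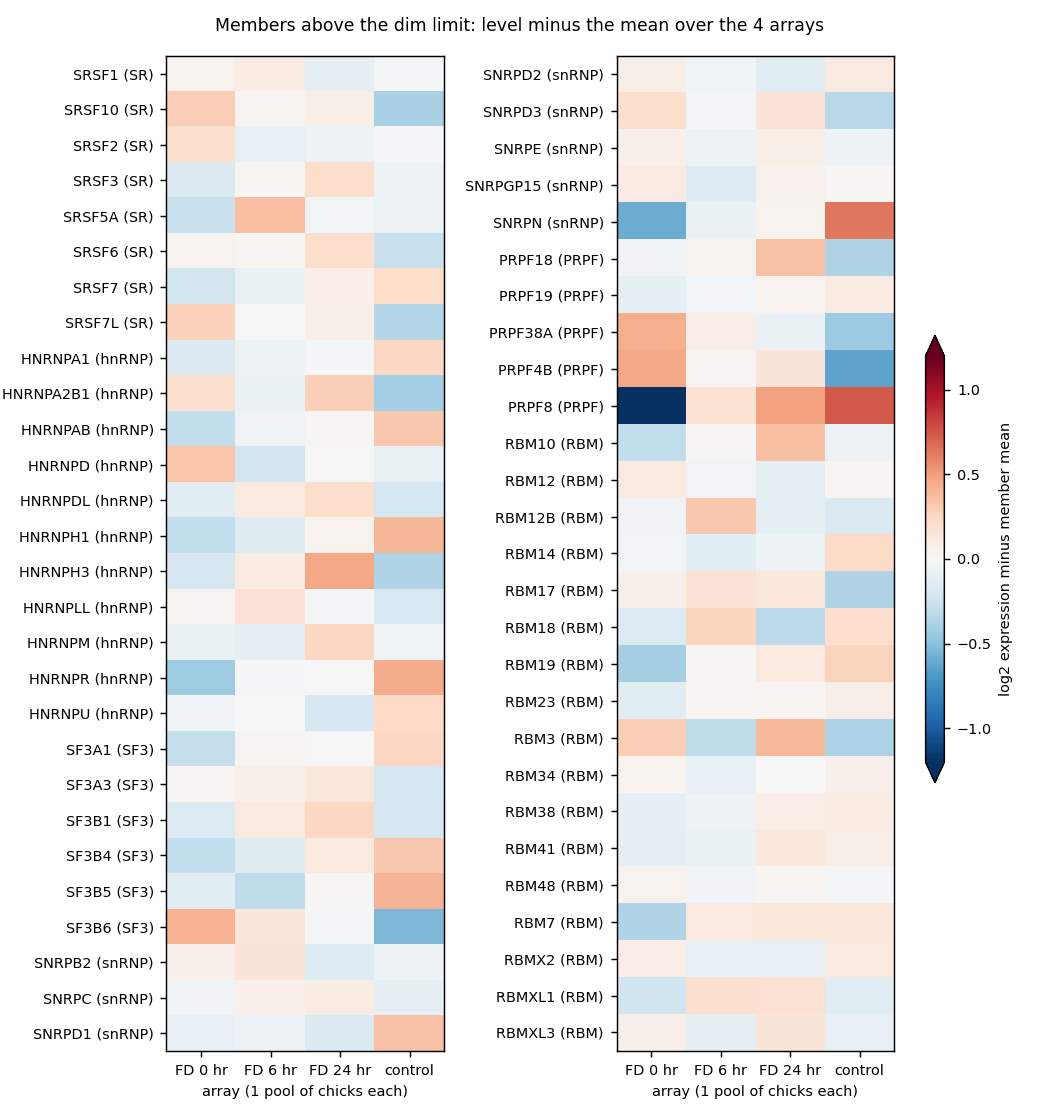
Log2 expression of the 55 members above the dim limit on each array, minus the mean of that member over the 4 arrays, with members as rows by role and arrays as columns (FD 0 hr, FD 6 hr, FD 24 hr, control). Blue is below the mean and red above it, and the darkest cell is PRPF8 at FD 0 hr, at 7.92 against 10.05 in control.

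The hnRNP proteins were split at the end of form deprivation, with 6 of 12 above control and 6 below and a median of 0.03. HNRNPR, an mRNA-binding protein, was at 10.54, 10.95 and 10.97 over the FD arrays and at 11.41 in control by its single probe set. HNRNPH1, which binds runs of G, was at 9.68, 9.83 and 10.01 over the FD arrays and at 10.37 in control, and its 3 probe sets were lower at FD 0 hr by -0.69, -0.50 and -0.01. HNRNPU, a scaffold protein of the nucleus, was at 10.04 at FD 0 hr and 10.32 in control, and its 3 probe sets differed by -0.28, -0.45 and -0.65. By the value of the gene, these 3 genes were highest on the control array. The brightest probe set of HNRNPH1 was highest at FD 24 hr, at 11.28 against 11.12 in control.

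For the A/B and D genes of the hnRNP family, probe sets of the same gene disagreed in sign or in size. HNRNPA1, which opposes SRSF1 in the choice of splice sites, was at 9.93, 10.04 and 10.08 over the FD arrays and at 10.35 in control. Its 5 probe sets were all lower at FD 0 hr, by as much as -1.33 and -1.25 or as little as -0.02. HNRNPA2B1, a reader of RNA sorting signals, had a median that was higher at FD 0 hr (9.89 against 9.29), but 2 of its probe sets were higher by 0.60 each and the other 2 lower, by -0.99 and -0.57, and the difference of the gene has no settled sign. HNRNPAB had 4 probe sets at 0.12, -0.30, -1.36 and -0.19. HNRNPD, an AU-rich element binding protein of mRNA decay, had probe sets at 1.26 and -0.42. Several of these probe sets bear the suffix of those that may read more than 1 transcript. HNRNPK, a poly(C)-binding protein, gave a median of 4.27 at FD 0 hr and 4.06 in control, as 2 of its 3 probe sets were dim, and its bright probe set was at 10.45, 10.79 and 10.67 over the FD arrays and at 10.45 in control.

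**Figure D3:**
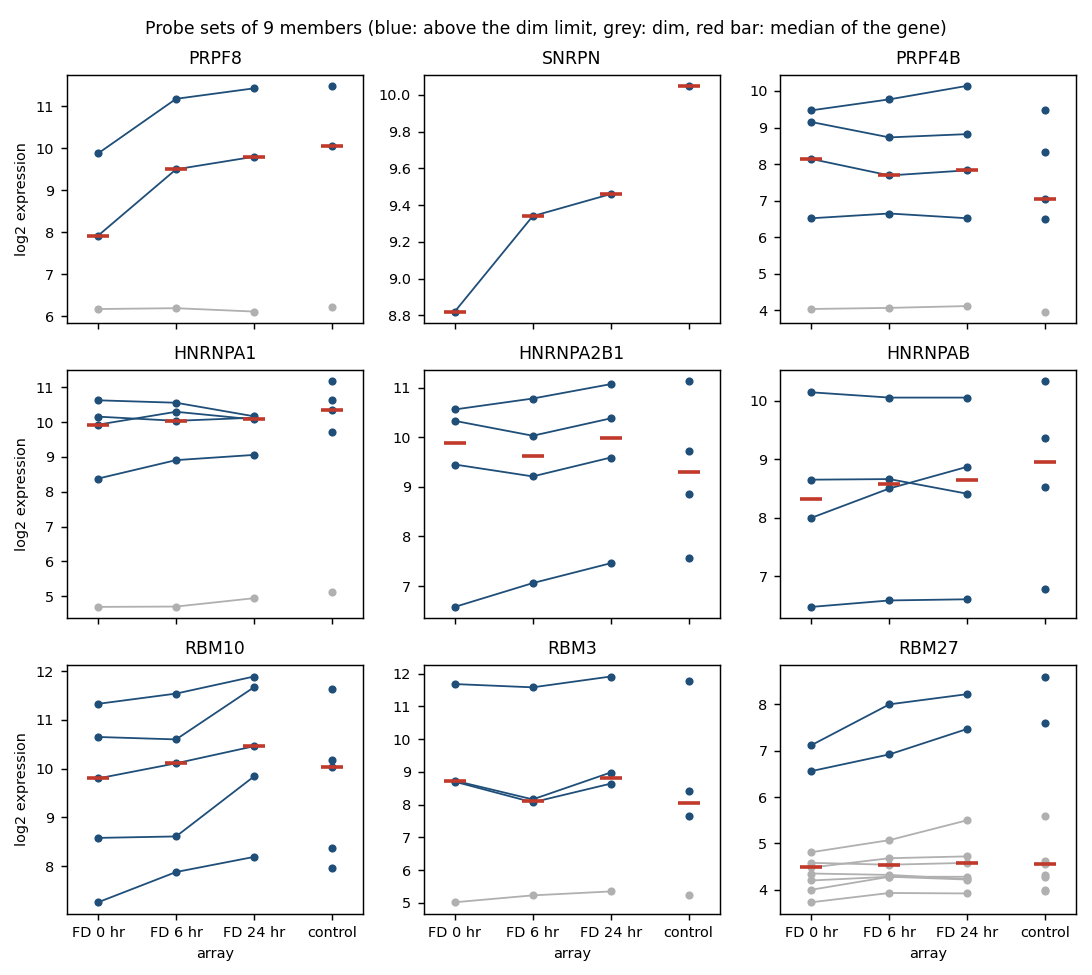
Log2 expression of every probe set of 9 members on the FD 0 hr, FD 6 hr, FD 24 hr and control arrays (blue, above the dim limit; grey, dim; red bar, the median used as the value of the gene), with lines joining the FD arrays and each panel on its own scale, which does not start at 0. The bright probe sets of PRPF8 lie lowest at FD 0 hr (9.88 and 7.92), whereas those of HNRNPA2B1 and HNRNPAB differ in opposite directions between FD 0 hr and control.

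The SR genes had a median of 0.06 at FD 0 hr, with 6 of 11 above control. None of the 8 above the dim limit differed by at least 1, against 9.15% of all genes. That share comes to less than 1 gene of 8, so the count is no result about the family. SRSF1, the founding member of the family, was at 11.49, 11.55 and 11.34 over the FD arrays and at 11.43 in control. SRSF2 was at 9.85 at FD 0 hr and 9.64 in control, and SRSF3, an SR protein that also aids mRNA export, at 8.76 at FD 0 hr and 8.875 in control. SRSF10, which turns into a splicing repressor when it loses its phosphates, was the SR gene furthest above control, with 9.085, 8.825 and 8.86 over the FD arrays and 8.405 in control. All 4 of its probe sets were higher at FD 0 hr, by 0.40 to 0.92. SRSF7, a shuttling SR protein, was at 10.26 at FD 0 hr and 10.70 in control, and SRSF7L, annotated as a separate gene, at 8.615 at FD 0 hr and 7.985 in control. The difference of SRSF7L came from its dim probe set (6.09 against 4.73), while the bright one was at 11.14 against 11.24. SRSF5, a dim gene, was at 6.02 at FD 0 hr and 6.75 in control, and its bright probe set at 9.04 and 9.35 on the same arrays.

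RBM genes, named for an RNA-binding motif, form a mixed group whose members act in splicing, RNA decay and ribosome assembly. At FD 0 hr 12 of 31 were above control and 19 below, with a median of -0.05, and 14 of the 31 were dim. RBM19, a nucleolar protein of ribosome assembly, was at 6.39, 6.80 and 6.91 over the FD arrays and at 7.06 in control, and its 3 probe sets were all lower at FD 0 hr, by -0.67, -0.31 and -0.58. RBM7, which guides the nuclear exosome to RNA, was at 6.37, 6.845 and 6.855 over the FD arrays and at 6.855 in control, so that the FD 0 hr array stood apart. RBM8A of the exon junction complex, a dim gene, was at 5.82 at FD 0 hr and 6.04 in control. RBM24, a splicing regulator of muscle and also dim, was at 5.41 at FD 0 hr and 4.975 in control. RBM27 shows what a median over probe sets can hide, as its value was 4.48 at FD 0 hr and 4.56 in control. Of its 9 probe sets 7 were dim, but the bright ones were lower by -1.48 and -1.03.

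Over the first 6 hr of recovery the members differed about as much as all genes, with a median size of the difference of 0.18 for both. The median over the members was 0.035, with 44 members above FD 0 hr and 36 below it, beside 0.00 over all genes. PRPF8 was the only member higher by at least 1 and none was lower by as much, against 0.836% of all genes higher and 0.459% lower. With a limit of 0.58 SRSF5A was higher too and RBM3 lower, which makes 2 and 1 members, against 4.79% and 3.18% of all genes. The probe sets of RBM3 disagreed, at -0.63, -0.57, 0.21 and -0.10, the last being the brightest. SRSF5A, annotated as a gene of its own beside SRSF5, was at 7.21 at 6 hr, against 6.585 without recovery, and its 4 probe sets were higher by 0.20 to 1.03. By its median, at 6.815 after 24 hr and 6.795 in control, it was closer to FD 0 hr, so that FD 6 hr stood apart. A bright probe set of SRSF5A was at 7.54, 8.57 and 8.24 over the FD arrays and at 8.13 in control. There FD 0 hr stood apart instead. Its brightest probe set was at 10.60, 10.98 and 10.78, with 10.72 in control. SNRPN, RBM7 and RBM18 were higher by 0.52, 0.475 and 0.43. Leaving out dim members and those with disagreeing probe sets, HNRNPD was the lowest at -0.56, followed by PRPF38A (-0.35), SRSF2 (-0.29), SF3B6 (-0.28) and SNRPD3 (-0.215). The FD 0 hr array, with its wide β-actin gap, is part of each difference here. The split of the spike-in controls also lies within every difference of a recovery array from FD 0 hr or control.

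Between 6 and 24 hr of recovery no member differed by at least 1, against 0.311% of all genes higher and 0.934% lower. The median was 0.06, with 51 members higher, 27 lower and 2 equal at FD 24 hr. Over all 13051 genes the median was -0.01, with 6079 higher and 6733 lower. With a limit of 0.58 there was 1 member higher, RBM3, and 1 lower, RBM18, against 1.97% and 4.84% of all genes. RBM3, a protein induced by cold in mammals, was at 8.81 at FD 24 hr and 8.115 at FD 6 hr, and its 4 probe sets were all higher, by 0.12 to 0.82. By its median RBM3 was at 8.715 at FD 0 hr and 8.04 in control, but here its probe sets disagreed, at 1.04, 0.31, -0.22 and -0.08, and the brightest was at 11.68 at FD 0 hr and 11.76 in control. The hours of the day at which eyes were collected are not given in the sources used here, and for the FD 6 hr array time of day cannot be told apart from recovery. HNRNPM, a splicing repressor, was at 7.47 at FD 24 hr and 7.10 at FD 6 hr, and its 3 probe sets were higher by 0.17 to 0.39. HNRNPH3 (0.37), HNRNPA2B1 (0.365) and RBM10 (0.35) were higher in all their probe sets as well. Those of RBM10, all bright, were at 1.23, 1.07, 0.35, 0.35 and 0.31, so that its median is well below its largest values. RBM18 was lower by -0.58, SNRPB2 by -0.31, SRSF1 by -0.21, PRPF38A by -0.16 and SF3B6 by -0.15, each by a single probe set.

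Over the whole 24 hr of recovery, PRPF8 was again the only member higher by at least 1 and none was lower, against 1.75% of all genes higher and 2.43% lower. The median was 0.05, with 43 members above FD 0 hr and 37 below it, beside -0.01 over all genes. With a limit of 0.58, HNRNPH3, RBM10, SNRPN and PRPF8 made 4 members higher and none was lower, against 7.57% and 8.95% of all genes. RBM10, which promotes exon skipping, was at 9.80, 10.11 and 10.46 over the FD arrays and at 10.03 in control. All 5 of its probe sets were higher at FD 24 hr, by 0.56 to 1.26. HNRNPH3, a relative of HNRNPH1, was at 8.46, 8.75 and 9.12 over the FD arrays and at 8.30 in control, and its 3 probe sets were higher at FD 24 hr by 0.66 to 1.08. PRPF38A (-0.51), SF3B6 (-0.43), HNRNPD (-0.335), SRSF2 (-0.25) and RBM12 (-0.225) were furthest below FD 0 hr once dim members and those with disagreeing probe sets were left out, and RBM19 (0.52) and RBM7 (0.485) followed SNRPN (0.64) on the higher side. By role, the hnRNP genes had a median of 0.23 with 8 of 12 higher. The SF3A and SF3B members, without subunits outside the rule, had a median of 0.295, with 6 of 7 higher. Medians of the other roles were -0.08 (SR), -0.04 (snRNP), 0.045 (PRPF) and -0.01 (RBM). Over all genes, 6275 of 13051 were higher. Markers of amacrine and horizontal cells were higher over the same time for 9 of 9 genes, and those of ganglion cells for 7 of 8. Their part in the differences of the members was not tested.

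After 24 hr of recovery no member differed from the control array by at least 1, against 0.983% of all genes higher and 1.43% lower. Single bright probe sets did, at 1.64 and 1.46 for RBM10, 1.07 for SRSF10 and -1.1 for HNRNPA1. The share over all bright probe sets is not given for this comparison, so these values are no result about the members. Other probe sets of these genes were closer to control. The median of the members was -0.02, with 37 higher, 41 lower and 2 equal. With a limit of 0.58 there were 5 members higher and 1 lower, against 5.33% and 6.03% of all genes. The higher ones were HNRNPH3 (0.82), PRPF4B (0.79), RBM3 (0.77), PRPF18 (0.71) and HNRNPA2B1 (0.695), and the lower one was SNRPN (-0.59). The probe sets of HNRNPA2B1 again disagreed, at 0.74, 0.65, -0.11 and -0.06, the last being the brightest. At 6 hr of recovery, likewise, no member differed from control by at least 1, against 1.82% of all genes higher and 1.18% lower.

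**Figure D4:**
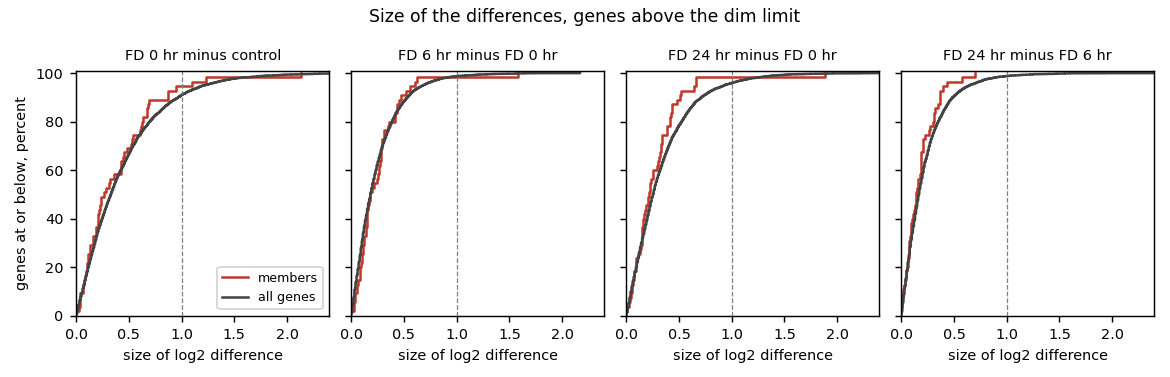
Percent of genes above the dim limit whose log2 difference, without its sign, is at or below the value on the horizontal axis, for 55 members (red) and 6101 genes (dark grey) in 4 comparisons, with a dashed line at 1. For FD 0 hr minus control the median size is 0.265 for members and 0.33 for all genes, and for FD 6 hr minus FD 0 hr it is 0.18 for both.

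Over the 4 arrays, 94.5% of the 55 members above the dim limit stayed within a range of less than 1, as did 88.1% of the 6101 genes, and the median of this range was 0.48 for these members and 0.465 for these genes. By single probe sets, 135 of those of members passed the dim limit, and at FD 0 hr 4 were above control by at least 1 and 10 below, against 5.13% and 5.81% of all 11764 such probe sets. This is 10.4% of the members' probe sets, beside 10.9% of all, and they belonged to 11 genes. Over the 24 hr of recovery 6 were higher and none was lower, against 2.54% and 2.52%, which is 4.44% beside 5.06% in both directions. Among genes with at least 2 bright probe sets, these went in opposite directions at FD 0 hr for 35.0% of 40 members and 33.3% of 2572 genes. Across the 55 members, the differences of FD 0 hr from control and of FD 24 hr from FD 6 hr, which share no array, had a Pearson's r of -0.016 and a Spearman's rho of 0.03, and across the 6101 genes of -0.319 and -0.351. These correlations are across genes, which are not independent replicates.

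The remaining machinery was read from a list of 147 other splicing genes, of which 122 were measured and 80 passed the dim limit. At FD 0 hr 59 were above control and 63 below with a median of -0.02, beside 0.00 over all genes. By at least 1 there was 1 gene higher and 5 were lower, which is 7.5% of the 80 against 9.15% of all genes. Apart from that count, the genes named are those above the dim limit whose probe sets all went one way. LSM6, a protein of the ring on U6 RNA, was the higher one, at 10.13 at FD 0 hr and 8.63 in control, followed by the related LSM3 (0.98) and LSM5 (0.79). EFTUD2, SFPQ, DHX38, WBP11 and RNPS1 were lower, by -1.15, -1.11, -1.09, -1.09 and -1.07, but the probe sets of EFTUD2, SFPQ and WBP11 did not all go one way. DHX38 is a helicase of the second step of splicing and RNPS1 a partner of the exon junction complex, and each has a single probe set. CELF2, a splicing regulator of neurons and muscle, was lower by -0.99. At FD 6 hr no gene of the list differed from FD 0 hr by at least 1, against 0.836% of all genes higher and 0.459% lower. RNPS1 (0.84), CELF2 (0.715) and THOC5 (0.61), of mRNA export, were the highest of those there, and LSM6 (-0.60), KHDRBS3 (-0.495) and TXNL4A (-0.31) the lowest. Over 24 hr 80 genes were higher and 42 lower with a median of 0.11, beside -0.01 over all genes. PCBP3, a poly(C)-binding protein, at 11.67 against 10.51, and SFPQ, a protein of paraspeckles, at 8.43 against 7.39, were the 2 higher by at least 1 and none was lower, against 1.75% and 2.43% of all genes, and TAF15 (0.98) followed. LSM5 (-0.78), THOC7 (-0.72) and LSM6 (-0.60) were the lowest. Between 6 and 24 hr the median was 0.03, beside -0.01 over all genes, and no gene differed by at least 1, against 0.311% higher and 0.934% lower. Within the same limits TAF15 was highest, at 7.61 against 6.70, followed by PCBP3 (0.76) and TIA1 (0.565), and the lowest were LSM5 (-0.66), THOC7 (-0.47) and the helicase DDX5 (-0.39).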

How the data were processed

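Pooled RNA of 4 conditions was measured with 1 array each, so no test was computed. The authors summarised the arrays in Affymetrix Expression Console with RMA, and the deposited values are log2 expression of probe sets. The submitters' notes list MAS5 too. The study's methods describe RMA alone and together with arrays of another dataset, rerun with β-actin probe sets masked, but which run gave the deposited values is not given in the sources used here. Values were used as deposited. The platform's annotation gave 1 gene for 27178 of 38535 probe sets and several for 177, which were left out. All 80 members matched RefSeq genes of GRCg7b, used for chromosomes only. Gene values were medians of probe sets, as in the study's methods. The dim limit was the 60th percentile of probe set means.

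Members and lists were chosen with earlier results of these data known. Named members were the 5 with the largest difference in each direction per comparison, above the dim limit and with probe sets going one way, plus a fixed list, and for the other splicing genes 3 per direction. Further members were named after their values were seen to account for counts and roles. HNRNPC, SNRNP70, RBMX and RBM5 of the fixed list were not analysed here. Alternatives were quantile normalisation, centring, other summaries and choices of probe sets, exclusion of Z and W genes, and other limits. Counts and medians were tested on simulated data, in which all probe sets of a changed gene shifted alike. Such data do not show how the counts behave where probe sets of a gene disagree. Python 3.11.15, NumPy 2.4.6, pandas 2.3.3, SciPy 1.17.1 and Matplotlib 3.10.9 were used.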

Additional observations from a re-analysis of the deposited data

How the results depend on the processing

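Under quantile normalisation of the 4 arrays, centring, exclusion of probe sets that may read several transcripts, exclusion of Z and W genes, a dim limit at the 50th percentile and no dim limit, every count of members past 1 stayed within 1.5 times its value. The median over the members for FD 0 hr against control changed sign under quantile normalisation, to 0.02 in place of -0.03. Its sign is thus not settled. The medians of the other comparisons kept their sign. The summary of the probe sets mattered more. With their mean, 0 members were above control by at least 1 at FD 0 hr and 0 were that far above FD 0 hr after 6 hr, in place of 1 each, and PRPF8 was below control at FD 0 hr by -1.27. With the brightest probe set, 5 members were below control by at least 1 at FD 0 hr and 2 were above FD 0 hr after 24 hr, and the medians were 0.09 over the first 6 hr and 0.145 over 24 hr of recovery. Using bright probe sets only, which was chosen after seeing the data, gave 0 members above control at FD 0 hr, and over 24 hr of recovery 2 higher and a median of 0.145. Shares of all genes under these other summaries are not given here. The counts under them are therefore no result about the members. With a limit of 0.58, 7 members were above control and 7 below it at FD 0 hr, 2 and 1 over the first 6 hr, 4 higher over 24 hr, and 1 and 1 between 6 and 24 hr. The cause was not tested. PRPF8 at FD 0 hr was below control by -1.61 with its brightest probe set. No paired analysis was possible because each condition has 1 array, and no replicate could be left out. Signal near the background limits what can be seen of the 25 dim members.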

Other observations

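Small proteins of the LSM rings, which bind U6 RNA or the ends of decaying mRNA, differed unequally. They were picked out of the list of other splicing genes after their values were seen. At FD 0 hr, LSM6 differed from control by 1.5, LSM3 by 0.98, LSM5 by 0.79, LSM7 by 0.48, LSM8 by 0.05, LSM1 by -0.28 and LSM4 by -0.54, and of these LSM3, LSM5 and LSM6 passed the dim limit. LSM5 was at 7.40, 7.28 and 6.62 over the FD arrays and at 6.61 in control. Of the exon junction complex, which marks spliced mRNA, MAGOH was at 10.31 at FD 0 hr and 10.92 in control, and EIF4A3 at 11.45 at FD 0 hr and 11.68 in control. CASC3 of the same complex, a dim gene, was at 5.94 at FD 0 hr and 5.89 in control. SAP18, a partner of RNPS1, was at 11.96 at FD 0 hr and 11.34 in control, while RNPS1 itself differed by -1.07.

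Values of a few regulators of alternative splicing, which were also picked after they were seen, follow. CELF2 was at 6.98, 7.695 and 7.37 over the FD arrays and at 7.97 in control. MBNL3 was at 6.54, 6.55 and 7.14 over the FD arrays and at 7.30 in control. ELAVL4, of neurons, was at 9.625 to 9.885 on the 4 arrays. LUC7L3, a protein related to the U1 snRNP, was above control (6.865) on all FD arrays, at 7.515, 8.075 and 7.955. At FD 0 hr, however, its 2 probe sets did not go one way. The neuronal regulators NOVA1 and RBFOX1 were dim.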
